A study of Mus musculus with 2 samples.

Results

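The transcription factors that specify dendritic cell (DC) lineages were examined at the mRNA level in single DCs of skin-draining lymph nodes (dLNs). The 10 genes *Irf4*, *Irf8*, *Batf3*, *Zbtb46*, *Id2*, *Klf4*, *Zeb2*, *Spi1*, *Spic* and *Runx3* were chosen by name from the 18049 genes listed in the expression data, and all 10 were listed. CITEseq, which counts transcripts and DNA-barcoded antibodies in the same cell, had been run on 1 library from unimmunized mice and 1 library from mice given ovalbumin (OVA) plus papain in both rear footpads 1 day earlier. Papain is a cysteine protease that acts as an allergen and a type 2 adjuvant. Both libraries came from B6 mice without a transgene, and both held live MHCIIhi CD11c+ B220- cells from a sort. By the study's methods, popliteal nodes gave the papain library, whereas several skin-dLNs were pooled for the naive one, so the site of the node and the immunization cannot be told apart. GEO's extraction protocol instead names popliteal nodes for both libraries, and the files do not settle which holds. With 1 library per condition there was no replicate check, cells are not replicates, and no test was made. All intervals are 95% intervals that cover counting error only.

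Conventional DCs are divided into cDC1s, which cross-present antigen to CD8+ T cells, and cDC2s, which prime CD4+ T cells. Langerhans cells (LCs) are epidermal cells that arise from embryonic precursors and migrate to the dLN like DCs. IRF8 and its partner BATF3 are required for cDC1s, and ID2 is an inhibitor of E proteins that cDC1s and LCs need. IRF4, KLF4 and ZEB2 are required in different ways for cDC2s, and KLF4 in IRF4-expressing cDC2s is needed for type 2 responses. PU.1, the product of *Spi1*, acts at the top of the myeloid programme, and ZBTB46 marks the conventional DC lineage. SPI-C, a relative of PU.1, is best known from splenic red pulp macrophages. RUNX3 takes part in TGF-beta signalling in DCs and is required for LCs.

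A class from the authors' antibody labels was given to 3042 of the 3471 naive and 7306 of the 7596 papain cells. The classes held 440 naive and 881 papain LCs, 578 and 235 cDC1s, 658 and 1470 CD301blo cDC2s, 659 and 1827 CD301bint cDC2s, and 707 and 2893 CD301bhi cDC2s. The median depth per cell was 13764 UMIs for naive and 14738 UMIs for papain cells, 2 barcodes were found in both libraries, and doublets were not called. Levels are given as CPM, the UMIs of a gene per 1000000 UMIs of all cells of a group. The labels were checked against marker genes. In the naive and the papain library, LCs had 102 and 156 CPM of *Epcam* against 29.2 and 7.49 CPM in cDC1s. *Sirpa* was highest in cDC2s. The other cDC2 markers *Cd209a*, *Mgl2*, *Clec10a* and *Itgam* were at 7.69 to 59.1 CPM in the naive cDC2 classes. In each papain cDC2 class they were at most 1.38 CPM. *Clec10a* was at 0.272 CPM in papain LCs, above the 0.034 to 0.166 CPM of papain cDC2s. The defining genes of cDC1s were low in the cDC1 class itself, with *Xcr1* at 16.9 and 9.44 CPM, *Clec9a* at 5.48 and 10.1 CPM, and *Tlr3* at 1.05 CPM and 0. Transcripts of T cells (*Cd3e* or *Trac*) were seen in 13.5% of naive cDC1s and in 2.97% to 7.26% of each other class.

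**Figure D1:**
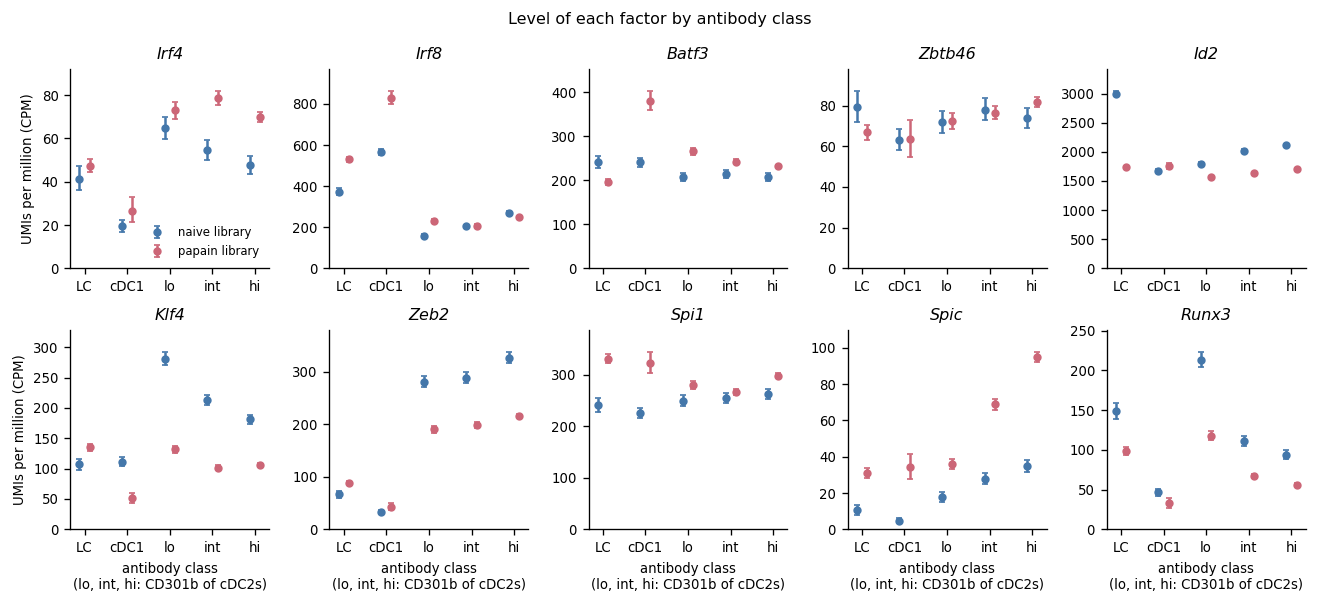
CPM (y axis, linear from 0) of the 10 genes in the 5 antibody classes (x axis) of the naive (blue) and the papain library (red); points are 1 library each, and bars are exact Poisson 95% intervals. *Spic* was higher in the papain library in every class, *Irf8* was highest in cDC1s, and *Zeb2* was lowest in cDC1s in both libraries.

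The first comparison asked how the factors differed between cDC1s and all cDC2s of the same library. A gene was counted as past 1.5-fold when its ratio reached 1.5 in either direction and its higher level was no less than 10 CPM. All 10 genes met this minimum in all 11 comparisons. In the naive library 1 of the 10 genes was higher and 5 were lower in cDC1s, while 29.1% of all 7523 genes compared were past 1.5-fold. Among papain cells 2 were higher and 5 lower in cDC1s, against 26.4% of 7245 genes. The median log2 ratio of the 10 genes was -0.62 and -0.69, against -0.08 and -0.12 over all genes compared.

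*Irf8* set cDC1s apart in both libraries. Its level in the naive library was 566 CPM in cDC1s, 373 CPM in LCs, and 157, 204 and 270 CPM in CD301blo, CD301bint and CD301bhi cDC2s. The same classes of the papain library had 830, 530, 233, 209 and 253 CPM. The order from cDC1 to LC to cDC2 was the same in both libraries, and no neighbouring intervals overlapped. *Irf8* was 2.64-fold higher in cDC1s than in cDC2s in the naive library, with a log2 interval of 1.35 to 1.45, and 3.52-fold higher in the papain library, with a log2 interval of 1.76 to 1.88. LCs also exceeded cDC2s, by 1.74-fold and 2.25-fold.

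*Batf3*, the partner of *Irf8*, differed little between the classes of the naive library. It was at 241 CPM in both cDC1s and LCs and at 208, 214 and 208 CPM in the 3 cDC2 classes. The intervals of cDC1s and LCs lay above those of the cDC2 classes. Papain cells had 381 CPM in cDC1s, 196 CPM in LCs, and 266, 242 and 232 CPM in CD301blo, CD301bint and CD301bhi cDC2s. The ratio of cDC1s to cDC2s was thus 1.15-fold in naive and 1.58-fold in papain cells. *Batf3* was the second gene that was higher in papain cDC1s.

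The 250 bases before the start of these genes are shown because *Irf8* and *Batf3* were the pair that was higher together in papain cDC1s. RefSeq windows on GRCm38.p6 were matched by symbol for 9 of the 10 genes, with 14 windows in all. Capitals mark the STAT letters TTCNNNGAA and the PU.1 core GAGGAA, read on both strands. The STAT letters are in 7.0% and the PU.1 core is in 23.3% of 32851 windows of the same length. The window of *Irf8*, on the plus strand at chr8:120736108-120736357, held the STAT letters at bases -171 and -153 from the start. A further window of *Irf8*, at chr8:120738389-120738638, held neither the STAT letters nor the PU.1 core and is not printed. The window of *Batf3*, on the plus strand at chr1:191098164-191098413, held them at -239, with a PU.1 core at -153. A match is a description of the letters and not a bound site.
Irf8: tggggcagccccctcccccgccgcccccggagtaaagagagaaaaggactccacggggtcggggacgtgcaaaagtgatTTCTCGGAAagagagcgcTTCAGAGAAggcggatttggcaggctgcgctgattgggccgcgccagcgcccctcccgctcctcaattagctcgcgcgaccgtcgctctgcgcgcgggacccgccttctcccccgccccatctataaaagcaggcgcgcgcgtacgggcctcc
Batf3: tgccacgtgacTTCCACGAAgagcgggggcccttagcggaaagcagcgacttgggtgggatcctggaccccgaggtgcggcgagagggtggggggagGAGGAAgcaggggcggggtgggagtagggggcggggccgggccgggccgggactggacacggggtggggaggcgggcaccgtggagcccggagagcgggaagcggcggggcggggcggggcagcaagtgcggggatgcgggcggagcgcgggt

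*Id2* was seen in 92.6% to 99.8% of the cells of each class. In the naive library it was at 2997 CPM in LCs, 1674 CPM in cDC1s, and 1800, 2016 and 2114 CPM in CD301blo, CD301bint and CD301bhi cDC2s. Papain LCs had 1735 CPM, papain cDC1s 1755 CPM and papain cDC2s 1563 to 1708 CPM. The high level of LCs was a feature of the naive library. There *Id2* was 1.51-fold higher in LCs than in cDC2s, against 1.05-fold in papain LCs.

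*Irf4*, *Klf4* and *Zeb2* were all lower in cDC1s than in cDC2s. *Irf4* was at 19.4 CPM in naive cDC1s and at 41.4 CPM in naive LCs, against 64.7, 54.7 and 47.6 CPM in CD301blo, CD301bint and CD301bhi cDC2s. Papain cDC1s had 26.7 CPM, LCs 47.4 CPM, and the cDC2 classes 73.0, 78.7 and 69.7 CPM. It was 2.84-fold lower in naive cDC1s and 2.74-fold lower in papain cDC1s. The intervals of cDC1s did not overlap those of any other class.

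*Zeb2*, a repressor that acts against the cDC1 fate, showed the widest gap. Naive cDC1s had 33.2 CPM and naive LCs 66.6 CPM, against 281, 288 and 327 CPM in CD301blo, CD301bint and CD301bhi cDC2s. Papain cDC1s had 43.0 CPM, LCs 88.5 CPM, and the cDC2 classes 190, 198 and 216 CPM. Its level was 9.05-fold lower in naive cDC1s than in cDC2s, a log2 ratio of -3.18 (-3.34 to -3.02), and lower in papain cDC1s by a log2 ratio of -2.26 (-2.52 to -2.01). In the naive cDC1s 37 of the 315 UMIs of *Zeb2* came from 1 cell.

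*Klf4* was 1.99-fold lower in naive cDC1s and 2.12-fold lower in papain cDC1s than in cDC2s of the same library. It was at 111 CPM in naive cDC1s, 107 CPM in naive LCs, and 281, 213 and 181 CPM in CD301blo, CD301bint and CD301bhi cDC2s. The papain library had 51.8 CPM in cDC1s, 135 CPM in LCs, and 132, 102 and 106 CPM in the cDC2 classes. Part of the naive cDC2s decided this value, as described for the mRNA clusters: without the 246 naive cDC2s of cluster 5, *Klf4* was at 127 CPM in naive cDC2s and its log2 ratio of cDC1s to cDC2s was -0.19. The cDC1 count of the naive library was then 5 of 10.

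The remaining genes lower in cDC1s were *Spic* and *Runx3*. *Spic* was at 4.53 CPM in naive cDC1s, 6.04-fold below cDC2s, and at 34.2 CPM in papain cDC1s, 2.23-fold below cDC2s. *Runx3* was at 46.6 and 32.9 CPM in naive and papain cDC1s, 2.90-fold and 2.15-fold below cDC2s. *Zbtb46* and *Spi1*, which all conventional DCs use, stayed within 1.24-fold between cDC1s and cDC2s. *Zbtb46* ranged from 63.1 to 79.2 CPM over the 5 naive classes and from 63.5 to 81.8 CPM over the 5 papain classes. *Spi1* ranged from 226 to 263 CPM over naive and from 267 to 331 CPM over papain classes.

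LCs were compared with cDC2s in the same way. In the naive library 2 of the 10 genes were higher and 3 lower in LCs, and 25.3% of 7687 genes were past 1.5-fold. Among papain cells 1 was higher and 3 were lower, and 12.8% of 7348 genes were past it. *Irf8* was higher in LCs of both libraries. *Zeb2* was 4.51-fold lower in naive and 2.33-fold lower in papain LCs, and *Spic* was lower by log2 ratios of -1.38 and -1.30. These sizes moved with the antibody: in the 50% of each class with most of its antibody the log2 ratios were -4.49 and -2.61 for *Zeb2* and -2.76 and -3.75 for *Spic*. *Irf4* was 1.54-fold lower in papain LCs and 1.33-fold lower in naive LCs. *Klf4* was 2.07-fold lower in naive LCs and 1.23-fold higher in papain LCs. Without naive cluster 5, the log2 ratios of *Klf4* and *Id2* in naive LCs were -0.25 and 0.42, and 3 of the 10 genes were past 1.5-fold. *Runx3* was at 149 CPM in naive LCs and 98.6 CPM in papain LCs, a log2 ratio to cDC2s of 0.14 and 0.48.

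The papain library was then compared with the naive library within each class. Of the 10 genes, 3 were past 1.5-fold in LCs, with 1 higher and 2 lower, while 23.6% of all genes were. In cDC1s 2 were higher and 1 lower, against 22.9% of all genes. In CD301blo cDC2s 1 was higher and 2 lower, against 25.2%. In CD301bint cDC2s 1 was higher and 2 lower, against 21.3%. In CD301bhi cDC2s 1 was higher and 3 lower, against 18.6%. The counts, 3 of 10 in 4 classes and 4 of 10 in CD301bhi cDC2s, are of few genes, and the direction differed from gene to gene. Without the naive cDC2s of cluster 5, 1, 1 and 2 of the 10 genes were past 1.5-fold in CD301blo, CD301bint and CD301bhi cDC2s.

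**Figure D2:**
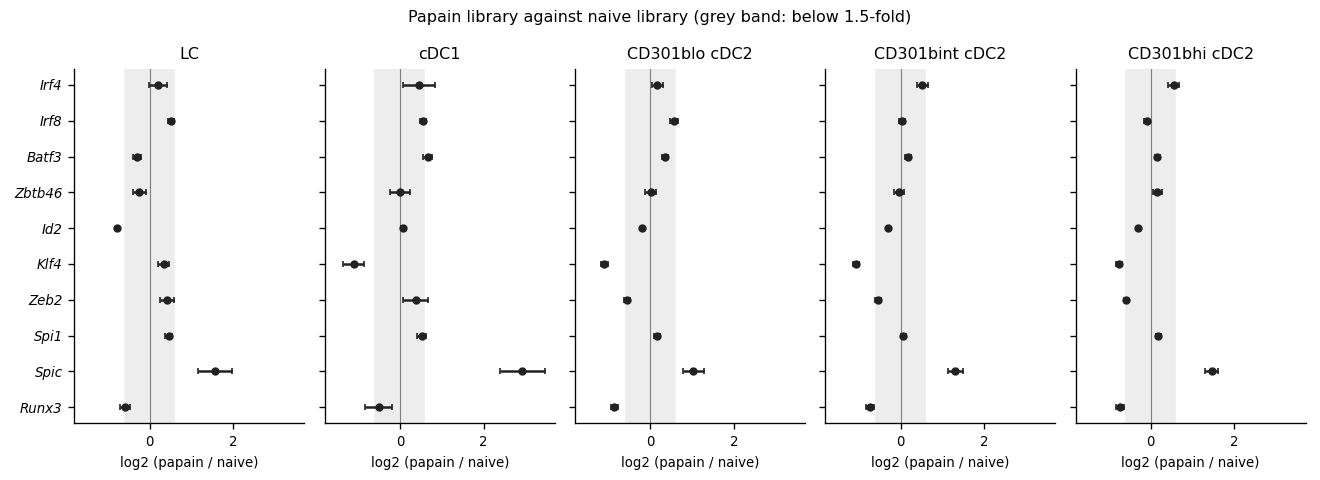
Log2 ratio of the papain to the naive library (x axis) for the 10 genes (y axis) in each of 5 antibody classes; points are ratios of summed UMIs, bars are 95% intervals for counting error, and the grey band spans ratios below 1.5-fold. *Spic* lies to the right of the band in every class and *Runx3* to the left of it in 4 of 5.

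*Spic* was the gene that was past 1.5-fold in the same direction in all 5 classes. In the naive library it was at 10.54 CPM in LCs, 4.53 CPM in cDC1s, and 17.7, 27.9 and 34.8 CPM in CD301blo, CD301bint and CD301bhi cDC2s. The same classes of papain cells had 30.9, 34.2, 36.1, 68.9 and 95.03 CPM. No interval of the papain library overlapped that of the naive library in the same class. *Spic* was 7.55-fold higher in papain cDC1s, a log2 ratio of 2.92 (2.39 to 3.46), on 105 papain and 43 naive UMIs. It was 2.93-fold higher in LCs, 2.04-fold in CD301blo, 2.47-fold in CD301bint and 2.73-fold in CD301bhi cDC2s. The LC value changed with the antibody: in the 50% of LCs with the most CD326, *Spic* was at 3.90 CPM in naive and 6.44 CPM in papain cells, under the minimum of 10 CPM.

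The higher level of *Spic* went with more cells in which it was seen. *Spic* was seen in 5.54% of naive cDC1s (3.82% to 7.73%) and in 25.1% of papain cDC1s (19.7% to 31.2%), with median depths of 15806 and 12399 UMIs. In CD301bhi cDC2s the shares were 28.4% (25.1% to 31.9%) and 51.7% (49.8% to 53.5%), with median depths of 15167 and 16181 UMIs. After each cell was thinned to 8392 UMIs the shares were 3.20% and 20.2% in cDC1s and 20.1% and 37.2% in CD301bhi cDC2s. In droplets without a class that held *Cd3e* or *Trac* transcripts, T cells being cells that should lack *Spic*, it was seen in 2.95% of naive and 1.66% of papain droplets, with median depths of 7626 and 6980 UMIs. The cDC1 shares were higher, 5.54% in naive and 25.1% in papain cells, at greater depth. These droplets also held 78.8 CPM of *Irf8* in the naive and 41.2 CPM in the papain library. They therefore do not give a background free of DC transcripts. As CPM, *Spic* was at 3.45 in the naive and 7.48 in the papain droplets, on 8 and 14 UMIs. At least 2 UMIs were found in 1.21% and 9.36% of cDC1s and in 12.4% and 30.2% of CD301bhi cDC2s.

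The window before *Spic* is shown because the gene was higher in every class of the papain library. It lies on the minus strand at chr10:88683024-88683273. It held none of the STAT, PU.1, AP-1, interferon response (GAAANNGAA), NF-kB (GGGANTTCC) or RUNX (TGTGGT) letters, which says only that these letters are not in this window.
Spic: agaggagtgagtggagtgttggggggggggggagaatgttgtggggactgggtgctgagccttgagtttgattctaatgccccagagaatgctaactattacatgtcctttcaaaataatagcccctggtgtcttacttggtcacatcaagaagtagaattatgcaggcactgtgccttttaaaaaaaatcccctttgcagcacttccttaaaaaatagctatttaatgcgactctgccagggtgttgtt

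Of a list of 5 iron-handling macrophage genes, 4 were listed in the data and 1, *Vcam1*, had 10 CPM in each comparison. *Vcam1*, an adhesion molecule, was at 90.6 CPM in naive and 61.0 CPM in papain CD301bhi cDC2s, against 55.9 and 50.2 CPM in CD301blo cDC2s and 23.1 and 21.6 CPM in LCs. Like *Spic* it was highest in CD301bhi cDC2s of both libraries, and unlike *Spic* it was not higher in the papain library in any class. *Hmox1*, which degrades heme, was at 6.74 and 3.18 CPM in the same cells, and *Cd163* was at 1.23 and 0.534 CPM. A wider list of 7 macrophage and monocyte genes summed to 69.0 CPM in naive and 16.7 CPM in papain CD301bhi cDC2s, with *Fcgr1* at 0 in the former. The naive sum includes 39 CD301bhi cells of cluster 5. In the cDC2s of that cluster the list summed to 532 CPM, against 5.14 to 94.7 CPM in the other naive clusters.

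*Runx3* was lower in the papain library in all 5 classes. Naive LCs had 149 CPM and papain LCs 98.6 CPM. In CD301blo, CD301bint and CD301bhi cDC2s it was at 214, 111 and 93.6 CPM in the naive and 118, 67.0 and 56.0 CPM in the papain library. Its log2 ratios were -0.59 in LCs, -0.50 in cDC1s, and -0.86, -0.73 and -0.74 in the cDC2 classes, so cDC1s were below 1.5-fold. Over the alternative settings the cDC1 ratio ran from -0.54 to -0.15. The LC ratio was at the threshold, and it was below it in 6 of 9 alternatives. Without naive cluster 5, the ratios of CD301blo and CD301bint cDC2s were -0.55 and -0.49, also below 1.5-fold, and that of CD301bhi cDC2s was -0.61.

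*Klf4* was lower in papain cells of 4 classes and higher in papain LCs. Its log2 ratios were -1.11 (-1.36 to -0.86) in cDC1s, -1.096 (-1.18 to -1.02) in CD301blo, -1.07 (-1.15 to -0.99) in CD301bint and -0.77 (-0.84 to -0.70) in CD301bhi cDC2s. In LCs it was 0.34 (0.21 to 0.47). These ratios did not hold in all cells. Without the naive cDC2s of cluster 5, the cDC2 ratios were -0.24, -0.24 and -0.12, all below 1.5-fold. Without cells that held a *Cd3e* or *Trac* UMI, naive cDC1s had 78.9 CPM of *Klf4*, and their ratio was -0.57, also below 1.5-fold.

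The window before *Klf4* is shown because this gene had the largest range over mRNA clusters of the naive library. It lies on the minus strand at chr4:55532476-55532725, with 74.0% G and C against a median of 52.4% over all windows. It held 4 copies of the GC box GGGCGG, which is in 32.7% of all windows, and they are not in capitals here. None of the 6 motifs searched for *Spic* was found in it.
Klf4: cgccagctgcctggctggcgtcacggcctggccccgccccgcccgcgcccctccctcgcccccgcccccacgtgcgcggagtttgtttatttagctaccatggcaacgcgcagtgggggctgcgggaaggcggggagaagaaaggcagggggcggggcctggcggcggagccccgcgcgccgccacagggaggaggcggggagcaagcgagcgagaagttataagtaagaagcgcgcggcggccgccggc

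*Zeb2* was lower in papain cDC2s and not in the other classes. Its log2 ratio was -0.56 in CD301blo, -0.54 in CD301bint and -0.60 (-0.65 to -0.54) in CD301bhi cDC2s, so all 3 lay close to the threshold and only the last was past it. Under other settings CD301blo was past it in 4 (-0.59 to -0.64) and CD301bint in 2 (-0.60 and -0.69), and CD301bhi was below it in 2 (both -0.58). In LCs it was 0.41 (0.24 to 0.58) and in cDC1s 0.37 (0.07 to 0.67), both below 1.5-fold. Both were past it as a mean over cells (0.67 and 0.61) and in the 50% of cells with most of their class antibody (1.20 and 1.45), and cDC1s also without cells that held *Cd3e* or *Trac* (0.73) and without the deepest 5% of cells (0.73). The CD301bhi ratio was -0.50 without naive cluster 5. *Id2* was lower in papain LCs by 1.73-fold, a log2 ratio of -0.79 (-0.82 to -0.76). It was lower by 1.15-fold to 1.24-fold in the cDC2 classes and 1.05-fold higher in cDC1s. Without naive cluster 5, the *Id2* log2 ratios were -0.53, -0.45 and -0.40 in CD301blo, CD301bint and CD301bhi cDC2s, all below 1.5-fold.

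The IRF genes were higher in some papain classes but below 1.5-fold, though some were past it under other settings. *Irf8* was 1.42-fold higher in LCs, 1.47-fold in cDC1s and 1.48-fold in CD301blo cDC2s, the last at the threshold, with log2 ratios of 0.60 to 0.79 in 4 of the alternative settings and 0.33 without naive cluster 5. In cDC1s the log2 ratio of *Irf8* was 0.63 as a mean over cells, past 1.5-fold. It was 1.02-fold higher in CD301bint cDC2s and 1.07-fold lower in CD301bhi cDC2s. *Irf4* was 1.44-fold higher in CD301bint and 1.46-fold higher in CD301bhi cDC2s. In the 50% of CD301bint cDC2s with most of their class antibody its log2 ratio was 0.72, past 1.5-fold. In naive CD301bhi cDC2s 35 of its 544 UMIs came from 1 cell, and without the richest cell of each group the log2 ratio was 0.63, past 1.5-fold. *Batf3* was 1.58-fold higher in papain cDC1s (log2 ratio 0.54, below 1.5-fold, in the 50% of cDC1s with most of their antibody), 1.23-fold lower in papain LCs and 1.11-fold to 1.28-fold higher in cDC2s. *Spi1* was 1.37-fold higher in LCs, 1.43-fold in cDC1s and 1.05-fold to 1.14-fold in cDC2s. Without naive cluster 5, the *Spi1* log2 ratios were 0.45, 0.22 and 0.23 in CD301blo, CD301bint and CD301bhi cDC2s. That of *Batf3* was then 0.12 in CD301blo cDC2s.

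**Figure D3:**
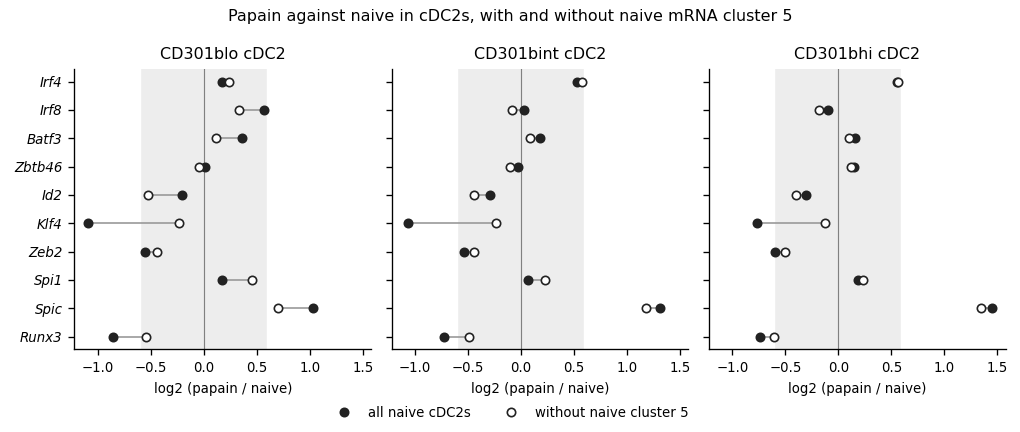
Log2 ratio of the papain to the naive library (x axis) of the 10 genes (y axis) in the 3 cDC2 classes, with all naive cDC2s (filled) and without the naive cDC2s of mRNA cluster 5 (open); the grey band spans ratios below 1.5-fold. *Klf4* moves into the band in all 3 classes, and *Spic* stays to the right of it.

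CD301bhi were compared with CD301blo cDC2s of the same library, since CD301b (MGL2) divides the cDC2s of the study. In the naive library 2 of the 10 genes were higher and 2 lower in CD301bhi cDC2s, and 14.5% of 7475 genes were past 1.5-fold. Among papain cells 1 was higher and 1 lower, against 8.27% of 7171 genes. The 2 genes past 1.5-fold in both libraries were *Spic* and *Runx3*. *Spic* was 1.97-fold higher in naive and 2.64-fold higher in papain CD301bhi cDC2s. *Runx3* was 2.28-fold and 2.11-fold lower. *Irf8* was 1.72-fold higher in naive and 1.09-fold higher in papain CD301bhi cDC2s. *Klf4* was 1.55-fold and 1.24-fold lower, and without naive cluster 5 its naive log2 ratio was -0.42, below 1.5-fold, which left 3 of 10 genes past it.

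The same genes were followed over 5 equal bins of the cDC2s ordered by the CD301b antibody value. *Spic* was at 11.8, 31.6, 25.4, 30.4 and 36.5 CPM from the lowest to the highest naive bin and at 32.4, 61.7, 75.2, 89.9 and 107 CPM over the papain bins. It was higher at each step in the papain library. *Runx3* was at 236, 156, 109, 104 and 84.8 CPM in the naive and 122, 76.8, 61.1, 54.9 and 55.4 CPM in the papain bins. Naive *Irf8* was at 151 CPM in the lowest and 298 CPM in the highest bin, and papain *Irf8* at 253 and 281 CPM with a minimum of 184 CPM in bin 2. *Batf3*, *Zbtb46* and *Spi1* differed by at most 1.17-fold between the lowest and the highest bin. Depth moved with the bins, from a median of 12981 to 15252 UMIs in naive and from 10945 to 16112 UMIs in papain cells, and its part was not tested.

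**Figure D4:**
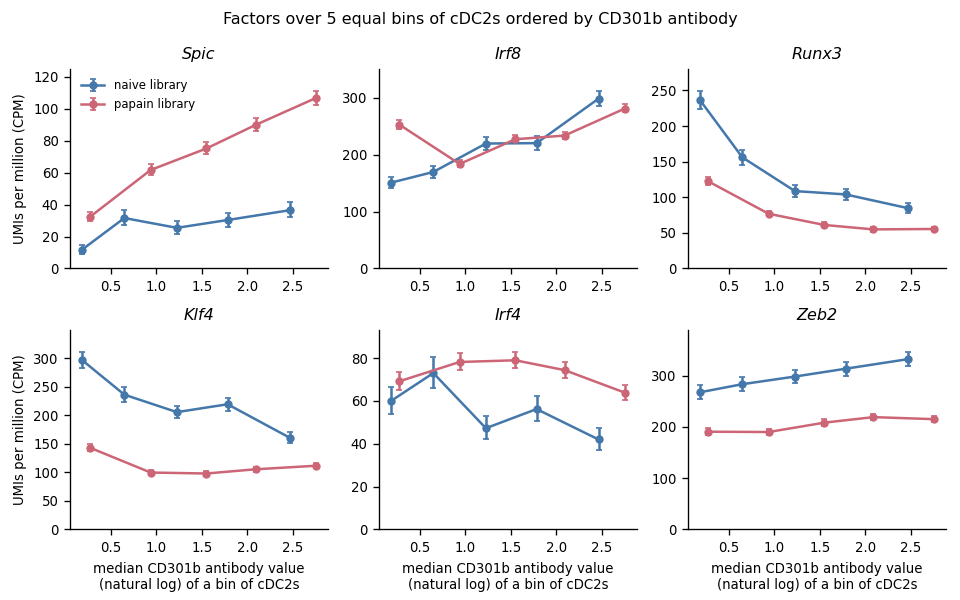
CPM (y axis, linear from 0) of 6 of the genes over 5 equal bins of the cDC2s, placed at the median CD301b antibody value of the bin (x axis, natural log), in the naive (blue) and the papain library (red); bars are exact Poisson 95% intervals. *Spic* climbs from 32.4 to 107 CPM over the papain bins, and *Runx3* declines from 236 to 84.8 CPM over the naive bins.

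The authors also divided cDC2s by mRNA into 7 naive and 9 papain clusters, numbered separately in each library. The clusters were built on the expression of these cells, so the levels are a description. Naive cluster 5, of 246 cells, differed most. It had the highest *Klf4* (724 CPM, against 71.2 to 234 CPM in the other naive clusters), *Zeb2* (399 CPM), *Spi1* (382 CPM) and *Runx3* (266 CPM). It also had the lowest *Irf8* (88.2 CPM), *Batf3* (113 CPM), *Zbtb46* (58.3 CPM), *Id2* (603 CPM) and *Spic* (6.96 CPM). For *Batf3* and *Zbtb46* its interval overlapped that of another naive cluster. The marker genes of cluster 5 differed as well. It had 257 CPM of *Cd209a*, 276 CPM of *Mgl2* and 110 CPM of *Clec10a*, against at most 21.2, 33.3 and 3.03 CPM in any other naive cluster. *Ccr7*, the receptor that guides DCs to the node, was at 1389 CPM in cluster 5 and at 2754 to 5029 CPM in the others. The 7 macrophage and monocyte genes summed to 532 CPM there and to 5.14 to 94.7 CPM elsewhere, with *Ccr2* at 219 CPM and *Csf1r* at 137 CPM. No papain cluster had such levels: the highest were 14.4 CPM of *Cd209a* and 7.40 CPM of *Mgl2*, both in papain cluster 9. CD301blo cDC2s made up 143 of the 246 cells and CD301bhi cDC2s 39.

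Other clusters stood out for single factors. The small naive cluster 6, of 55 cells with a median depth of 5929 UMIs, had 161 CPM of *Irf4*, the highest. Its *Irf8* was also the highest value, at 336 CPM (277 to 405) on 111 UMIs. That interval took in the one of naive cluster 1 (301 to 322), so the rank for *Irf8* is not settled. Papain cluster 8 likewise had the highest *Irf4*, with 143 CPM, and the highest *Zbtb46*, with 110 CPM. Papain cluster 4 had the highest *Irf8* (441 CPM) and *Spi1* (418 CPM), and 527 of its 671 cells were CD301blo cDC2s. Papain cluster 2 had the highest *Spic*, with 146 CPM, and 869 of its 1294 cells were CD301bhi cDC2s. Papain cluster 6 had the lowest *Irf4* (40.7 CPM, near the 41.15 CPM of papain cluster 4), *Id2* (696 CPM), *Klf4* (44.2 CPM) and *Runx3* (14.9 CPM). Papain cluster 9 was the opposite in 3 of these, with 2564 CPM of *Id2*, 329 CPM of *Klf4* and 182 CPM of *Runx3*, and it had the lowest *Spic*, at 12.95 CPM. The 5 T cell markers summed to 94.7 CPM in papain cluster 9 and to 4.945 to 26.5 CPM in the other papain clusters. The part of T cell transcripts in its *Runx3* was not tested. *Runx3* and *Spic* had the widest range over papain clusters, 12.3-fold and 11.3-fold, and *Batf3* the narrowest, 1.57-fold.

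**Figure D5:**
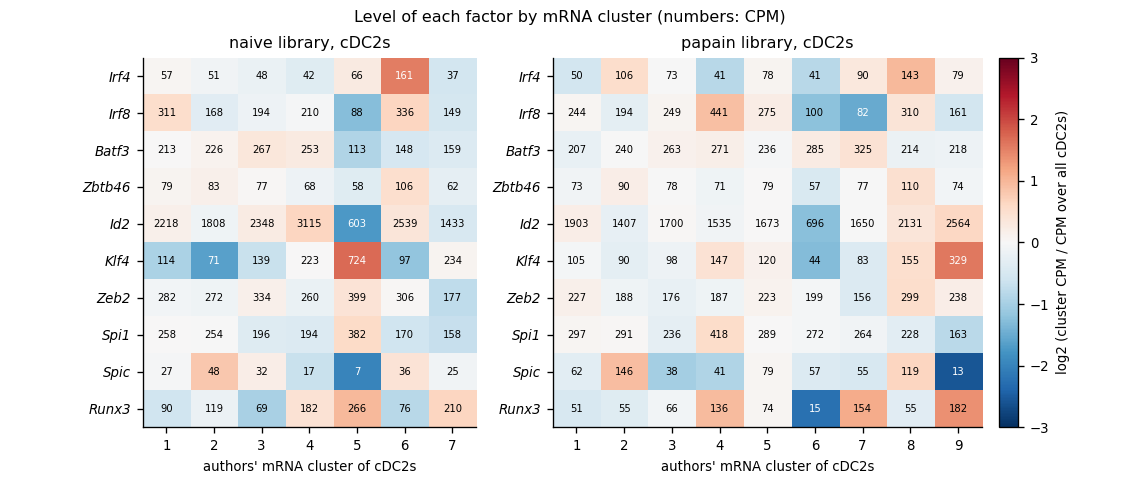
Level of the 10 genes (rows) in the authors' mRNA clusters of cDC2s (columns) of the naive (left) and the papain library (right); numbers are CPM, and colour is the log2 ratio of a cluster to all cDC2s of its library. Naive cluster 5 combines the highest *Klf4* (724 CPM) with the lowest *Id2* (603 CPM), and papain cluster 9 has the lowest *Spic* (12.95 CPM).

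Within clusters, CD301bhi and CD301blo cDC2s were compared where each had at least 20 cells. *Spic* was higher in CD301bhi cDC2s in 9 of 9 papain clusters, by log2 0.34 to 1.53, and the interval lay above 0 in 7. In the naive library it was higher in 4 of 5 clusters, with the interval above 0 in 1. *Runx3* was lower in CD301bhi cDC2s in 5 of 5 naive and 9 of 9 papain clusters, with the interval below 0 in 3 and 5. *Irf4* was lower in 5 of 5 naive and 8 of 9 papain clusters, with the interval below 0 in 2 and 5. *Irf8* was higher in 5 of 5 naive and 7 of 9 papain clusters, with the interval above 0 in 3 and 5. *Klf4*, which was lower in CD301bhi cDC2s of the whole naive library, was higher in 4 of 5 naive clusters. Its interval lay above 0 in 2 of them. In naive cluster 5 it was at 942 CPM in CD301bhi and 613 CPM in CD301blo cDC2s.

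Since IRF4 and IRF8 mark opposite branches, their transcripts were counted in the same cell after thinning to 8392 UMIs. Both were seen in 10.5% of naive cDC1s, 18.0% of naive LCs and 13.4% to 13.6% of the naive cDC2 classes. Of papain cells both were seen in 11.6% of cDC1s, 22.2% of LCs and 16.7% to 18.4% of the cDC2 classes. These shares were close to the product of the single shares, which ran from 9.80% to 18.8% over naive and from 11.4% to 22.7% over papain classes. In papain cDC2s the observed share was below the product in all 3 classes, at 16.7% against 18.4%, 17.9% against 18.6%, and 18.4% against 19.9%. Cells in which only 1 of the transcripts was seen may still hold the other at this depth.

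Relatives of the 10 genes and other DC regulators were counted from lists, by the same 1.5-fold rule. Papain against naive CD301bhi cDC2s is given first, where the median log2 ratio over all genes compared was 0.09 and 18.6% of them were past 1.5-fold. Of 8 IRF genes compared, 1 was higher and none lower, with a median of 0.18. The 1 was *Irf7*, which amplifies interferon responses, at 1.14 CPM in the naive and 17.0 CPM in the papain library. *Irf7* was also higher in papain LCs (1.69 and 14.7 CPM) and cDC1s (9.16 and 34.2 CPM). Of 5 relatives of *Spi1* compared, *Spic* was higher and *Etv3* was lower (1292 and 828 CPM), with a median of 0.18. Of 6 ID and E protein genes, *Id1* was higher (8.14 and 22.0 CPM) and none was lower, with a median of 0.17. Of 4 genes for RUNX factors and their partner CBFB, only *Runx3* was past 1.5-fold, with a median of -0.04, and of the 2 ZEB genes only *Zeb2* was. Of 5 KLF genes only *Klf4* was, with a median of -0.26. *Batf3* was the 1 BATF gene compared.

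Other DC regulators were lower in papain cDC2s more often than they were higher. In CD301bhi cDC2s 5 of 11 were lower and none higher, with a median log2 ratio of -0.46. *Nr4a3*, which takes part in DC migration, was at 1210 CPM in the naive and 383 CPM in the papain library. *Rbpj*, the Notch effector, was at 110 and 56.9 CPM, and *Cebpb* was at 48.8 and 23.8 CPM. In CD301blo cDC2s 9 of 13 were lower, where 25.2% of all genes were past 1.5-fold in either direction, and in CD301bint cDC2s 7 of 11 were, against 21.3%, and none was higher. Over all genes, 606 of 7226 were lower in CD301bhi, 1073 of 7575 in CD301blo and 775 of 7359 in CD301bint cDC2s. The naive cDC2s include cluster 5. These regulators were not counted without it, so its part in their lower values was not tested. In LCs 4 of 11 were lower and 1 higher, against 23.6% of all genes, and in cDC1s 3 of 10 were lower and 1 higher, against 22.9%. The 1 that was higher in both was *Stat3*, at 144 and 224 CPM in LCs and at 160 and 250 CPM in cDC1s.

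Genes known to depend on these factors were listed too. Of the genes that need IRF8 and BATF3 in cDC1s, 4 of 8 were higher and 2 lower in naive cDC1s than in cDC2s, with a median log2 ratio of 0.41, where 29.1% of all genes were past 1.5-fold. These naive cDC2s include cluster 5, where the 5 cDC1 markers of this list, such as *Xcr1*, summed to 64.5 CPM. The same markers summed to 59.0 CPM in naive cDC1s and to 3.86 to 14.3 CPM in the other naive cDC2 clusters. In papain cDC1s 5 of 6 were higher and none was lower, with a median of 2.08, against 26.4% of all genes. Between the libraries 6 of 9 were lower and 2 higher in papain cDC1s, with a median of -0.78, against 22.9% of all genes. This was not particular to cDC1s: in the other classes 2 of 3 (LCs), 7 of 7 (CD301blo), 6 of 7 (CD301bint) and 3 of 4 (CD301bhi) were lower and none higher, with medians of -1.32, -1.52, -1.71 and -1.81. The naive cDC2s again include cluster 5. These counts were not made without it, so its part in the lower values of cDC2s was not tested. Of the genes that need IRF4 or KLF4 in cDC2s, 2 of 6 were lower and 1 was higher in papain CD301bhi cDC2s, with a median of -0.22, against 18.6% of all genes. *Mgl2*, which encodes CD301b, was at 56.1 and 1.21 CPM and *Cd209a* at 32.2 and 0.336 CPM in naive and papain CD301bhi cDC2s. The 1 that was higher was the chemokine gene *Ccl17*, by a log2 ratio of 1.02. The naive *Mgl2* and *Cd209a* levels move with naive cluster 5, described above.

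Finally, the profile of each gene over the 10 groups of class and library was set beside those of 3288 genes with at least 50 CPM in a group. The 10 points come from 2 libraries, so the correlations of log2(CPM + 1) describe likeness only. The 3 genes most like *Zeb2* were *Osbpl8* (r = 0.99), *Sirpa* (0.98) and *Il1b* (0.98), and *Traf1* was most like *Batf3* (0.98), before *Sinhcaf* and *Stxbp3*. *Irf4* was most like *Mcemp1* (0.96), *Rps25-ps1* and *Smad7*, and *Irf8* like *Plekhn1* (0.96), *Tmco3* and *Atp6v1d*. *Klf4* was most like *Plek* (0.96), *Tmed5* and *Rpl28-ps1*, and *Id2* like *Ier5* (0.96), *Ppp4r3b* and *Gm36638*. *Spic* was most like *Taok3* (0.96), *Lims1* and *Tnip2*, and *Runx3* like *P2ry10* (0.95), *Gm37531* and *Coq10b*. *Zbtb46* was most like *Rasal2* (0.93), *Snhg15* and *Kif5b*, and *Spi1* like *Stat3* (0.93), *Rap1b* and *Mapre1*. Reads of the pseudogenes in these lists could not be told from those of their parent genes. Among the 10 genes themselves, the most unlike pair was *Irf8* and *Zeb2* (r = -0.89), followed by *Irf4* and *Irf8* (-0.83). The most alike were *Irf4* and *Zeb2* (0.84) and *Klf4* and *Runx3* (0.80).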

How the data were processed

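The authors sequenced 3′ mRNA and antibody tags with the 10x Chromium v3 kit. Per the labels they used Cell Ranger 3.0.1, Partek and mm10. As deposited, expression is in log2 units, taken by the authors after 1 was added to the CPM of each cell. UMIs were recovered from them, and 100% of the values up to 50 UMIs were whole within 0.02. Deposited antibody values are on a natural log scale, and the deposited numbers of expressed genes and antibody totals are counts. Classes and mRNA clusters are the authors' labels in the same data. UMIs were summed per class and library, and CPM intervals (exact Poisson), ratio intervals (exact conditional binomial) and intervals of shares (Clopper-Pearson) were computed in Python 3.11.15 with scipy. No pseudocount was added, and a count of 0 was set to 3 counts. Ratios and their intervals were checked on simulated Poisson counts of whole groups. That check holds no spread between cells, so it covers the computation and counting error only. Fold thresholds, minimum CPM and settings are given with the results. Naive cells had 3637 to 57378 and papain cells 2682 to 57150 UMIs, so single UMIs decide detection of low genes. The 10 genes and all gene lists were chosen with earlier results of these data known. Named genes are the 10, the 3 most alike per gene, and list members with the largest ratios. Left out of the comparisons were 429 naive and 290 papain cells without a class. Promoter letters come from RefSeq (GRCm38.p6), and no genome or protein sequences were used here.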

Additional observations from a re-analysis of the deposited data

Results flagged for a closer look

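For 6 genes the log2 ratio of papain to naive had opposite signs in different classes, each with a counting interval on 1 side of 0. The difference between the classes was not tested, since there is 1 library per condition. *Klf4* ran from -1.11 in cDC1s to 0.34 in LCs, and *Zeb2* from -0.60 in CD301bhi cDC2s to 0.41 in LCs. *Batf3* ran from -0.30 in LCs to 0.66 in cDC1s, and *Id2* from -0.79 in LCs to 0.07 in cDC1s. *Irf8* ran from -0.10 in CD301bhi to 0.57 in CD301blo cDC2s, and *Zbtb46* from -0.25 in LCs to 0.15 in CD301bhi cDC2s.

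Droplets without a class were used in no comparison, and those with a *Cd3e* or *Trac* UMI (237 naive, 241 papain) held *Runx3* at 110 and 102 CPM. RUNX3 is also a factor of T cells. In the papain library the same droplets had 25.7 CPM of *Spi1*, 11.8 CPM of *Zeb2* and 41.2 CPM of *Irf8*. The 192 naive and 49 papain droplets without a class and without these transcripts had 249 and 297 CPM of *Spi1*, near the level of the classed cells.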

How the results depend on the processing

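No paired analysis was possible because each condition had 1 library. Of 44 ratios past 1.5-fold, 37 stayed past it in the same direction under every alternative other than leaving out naive cluster 5, 13 calls were lost and 23 gained over 1030 values, and none reversed. The number of the 10 genes past 1.5-fold between the libraries was 5 in cDC1s with the mean over cells, 5 in CD301blo cDC2s without the deepest 5% of cells, and 5 in CD301blo and 5 in CD301bint cDC2s in the 50% with most of their class antibody. Leaving out naive cluster 5, chosen after seeing the data, gave 1, 1 and 2 in CD301blo, CD301bint and CD301bhi cDC2s, and 3 for naive LCs against cDC2s. The cause was not tested. The median log2 ratio of papain cDC1s to cDC2s, over genes with 10 CPM in both, was -0.10, and relative to it every ratio was higher by that amount and no call differed. The share of cells with a *Spic* UMI was 3.20% thinned and 1.21% with at least 2 UMIs in naive cDC1s, 9.36% with at least 2 in papain cDC1s, 20.1% and 12.4% in naive and 37.2% and 30.2% in papain CD301bhi cDC2s. With 1 library per condition, variation between mice was not measured, and by the study's methods node site and immunization cannot be told apart.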
